A study of Mus musculus with 11 samples.

Results

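The genes described here are 34 mouse genes of the endoplasmic reticulum, chosen by name for their work on newly made secretory and membrane proteins. Earlier results of these data were known at that choice, so counts set beside all genes below are descriptions only. They fall into 11 chaperones and their helpers, 6 genes of disulfide formation, 7 of the translocon, 7 of degradation and 3 stress sensors or their transcription factors. They are 34 of the 20368 gene symbols in the expression tables, and all 34 were found there.

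The samples are C2C12 cells, a line of mouse muscle precursor cells of the C3H strain, which stop dividing and fuse to form myotubes once serum is withdrawn. PolyA RNA was sequenced in 4 libraries, all from cells at 4 h of differentiation in 2% horse serum with insulin, transferrin and selenium. DRRi cells received RNA interference against the RNA of the DRR, the distal regulatory region upstream of Myod1, and GFPi cells were the matching control. The pHAN_DRR1.2 cells overexpressed RNA of the DRR from the construct labelled pHAN, and the pHAN_GFP cells carried its GFP counterpart. Chromatin immunoprecipitation (ChIP-seq) of MyoD and MyoG, factors that switch on muscle genes, and of the enhancer mark H3K4me1 came from myotubes at 48 h of differentiation. MyoD and H3K4me1 were also profiled in proliferating myoblasts, kept in 10% fetal bovine serum. The labels do not say how the RNA interference was delivered, nor whether a library came from 1 clone or a pool of cells. Each condition had 1 library or 1 peak list, so no difference below has a replicate check and no test between conditions was possible.

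Proteins bound for secretion or for membranes enter the endoplasmic reticulum through the translocon, are folded there by chaperones, and receive disulfide bonds from protein disulfide isomerases. Chains that do not fold are passed back to the cytosol and destroyed. When unfolded chains build up, the sensors IRE1, ATF6 and PERK start the unfolded protein response. IRE1 splices the message of Xbp1, and the XBP1 and ATF6 proteins switch on chaperone and degradation genes through short promoter elements, while PERK acts through the translation factor eIF2 and ATF4. Myoblasts are known to engage this response while they differentiate.

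The promoter elements are shown first, because 11 of the 34 genes carry one and the expression values below are read beside them. RefSeq promoters (GRCm38.p6, 250 bases before to 50 bases after the start site) were found for 28 of the 34 genes, Ero1l and Ero1lb under the names Ero1a and Ero1b. Those not matched were Hyou1, Manf, Sec61a1, Ssr2, Derl1 and Atf6. The endoplasmic reticulum stress element (ERSE) was searched on both strands as CCAAT followed by 9 bases of any kind and then by CCACG. It stood in 9 of 28 promoters (32.1%), against 0.137% of the 27025 genes with a promoter and 0.184% of the 8712 of them that were expressed, here an average of at least 1 FPKM, a length-scaled unit of RNA abundance, in either experiment. These 9 are among 37 such genes in all. The compact form, ERSE-II, is ATTGG followed by 1 base of any kind and then by CCACG, and it stood in 2 of 28 promoters, those of Herpud1 and Dnajb11, against 0.0444% of all genes and 0.0918% of expressed ones. Chaperone and degradation genes, which the unfolded protein response switches on through such elements, were chosen by name. The shares of both elements beside those of all genes cannot be read apart from that choice. The letters CCAAT (or ATTGG, the same box on the other strand) and CCACG lie inside both elements, so counts of these shorter motifs include them. Capitals mark the element in the stretches below, each written on the strand of its gene, 5′ to 3′.
Hspa5, chr2:34771995-34772073, plus strand: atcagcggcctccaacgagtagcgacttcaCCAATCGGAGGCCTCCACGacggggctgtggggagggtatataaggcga
Hsp90b1, chr10:86705503-86705686, minus strand: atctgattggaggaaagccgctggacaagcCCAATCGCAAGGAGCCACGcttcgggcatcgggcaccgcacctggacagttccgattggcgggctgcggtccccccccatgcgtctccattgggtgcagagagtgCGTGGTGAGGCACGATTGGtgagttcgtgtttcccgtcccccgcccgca
Creld2, chr15:88819490-88819568, plus strand: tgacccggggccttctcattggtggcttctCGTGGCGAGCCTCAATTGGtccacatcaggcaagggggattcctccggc
Dnajc3, chr14:118937797-118937875, plus strand: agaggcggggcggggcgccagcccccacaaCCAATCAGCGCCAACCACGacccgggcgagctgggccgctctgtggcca
Calr, chr8:84847045-84847123, minus strand: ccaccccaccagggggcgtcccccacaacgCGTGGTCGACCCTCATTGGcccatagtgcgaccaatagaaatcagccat
Canx, chr11:50325770-50325848, minus strand: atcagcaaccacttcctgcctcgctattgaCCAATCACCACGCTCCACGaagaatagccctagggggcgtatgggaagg
Pdia6, chr12:17266461-17266539, plus strand: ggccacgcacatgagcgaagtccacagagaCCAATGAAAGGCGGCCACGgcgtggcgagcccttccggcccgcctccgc
Ero1lb, chr13:12565652-12565730, plus strand: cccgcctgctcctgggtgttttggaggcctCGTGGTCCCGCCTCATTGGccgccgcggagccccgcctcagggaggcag
Syvn1, chr19:6046502-6046575, plus strand: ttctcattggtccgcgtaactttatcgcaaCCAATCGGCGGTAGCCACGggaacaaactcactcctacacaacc
Herpud1, chr8:94386347-94386417, plus strand: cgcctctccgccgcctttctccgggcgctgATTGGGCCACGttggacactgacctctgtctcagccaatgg

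Of the 9 matched chaperone promoters, 6 held an ERSE, and Hsp90b1 was the only one of the 28 to hold 2, in opposite directions at bases -212 to -194 and -107 to -89 from the start site. The element ran in the direction of the gene in Hspa5, Dnajc3, Canx, Pdia6 and Syvn1, and in the reverse direction in Creld2, Calr and Ero1lb. Its first base lay between -212 and -44 in the 9 genes. Dnajb11 differed, with its ERSE-II past the start site at bases 8 to 18. None of the 5 matched translocon promoters and neither of the 2 matched sensor promoters, those of Xbp1 and Ern1, held either element. The unfolded protein response element TGACGTGG stood in 0 of 28 promoters, against 0.714% of all genes. The CCAAT box stood in 23 of 28 promoters, against 41.1% of all genes and 43.5% of expressed ones, and CCACG in 24 of 28, against 35.5% and 53.6%. A match describes the letters of these windows only and says nothing of binding.

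**Figure D1:**
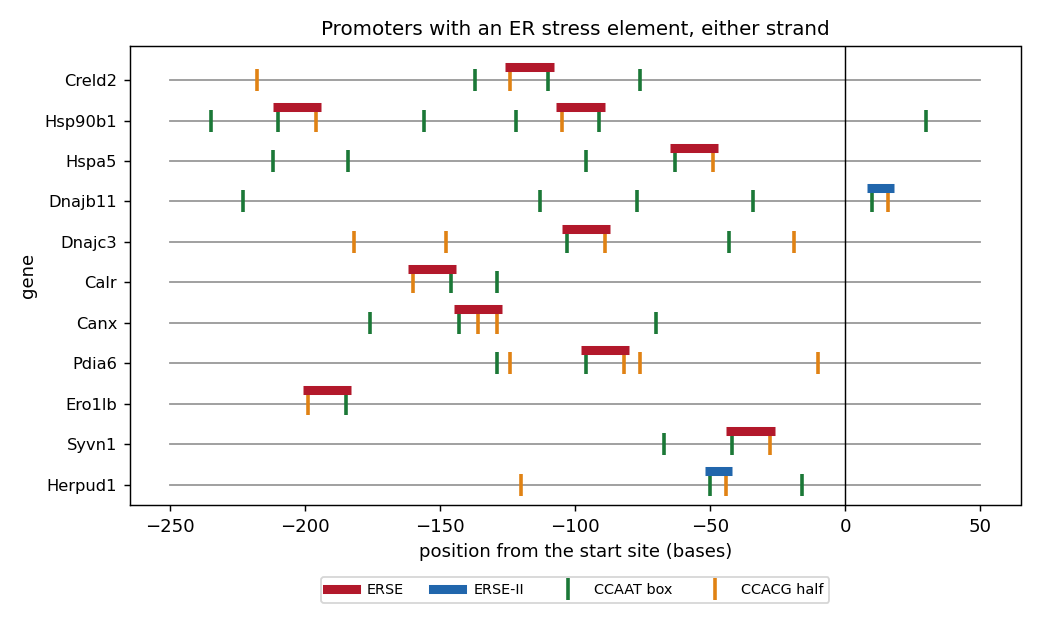
Positions of promoter elements in the 11 genes with an ERSE (red) or ERSE-II (blue), in bases from the start site, with CCAAT boxes in green and CCACG sites in orange on either strand. Each gene has 1 element except Hsp90b1 with 2, and that of Dnajb11 alone lies after the start site.

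Expression is given as FPKM, the fragments of a coding sequence scaled by its length and by the mapped fragments of the library, summed over the coding sequences of a gene. The authors scaled the 2 experiments separately, so levels are compared within an experiment only. Summed FPKM over all genes ran from 383311 to 411626 in the 4 libraries, and their read depths are unknown. The 34 genes covered a wide range of levels. Calr, the calcium-binding lectin chaperone calreticulin, was the most abundant of them in each library, with 719 FPKM in DRRi, 947 in GFPi, 842 in pHAN_DRR1.2 and 1006 in pHAN_GFP. Ero1lb, a thiol oxidase, was the scarcest, with 3.16 FPKM in DRRi, 2.85 in GFPi, 2.35 in pHAN_DRR1.2 and 2.65 in pHAN_GFP. Genes averaging less than 1 FPKM over a treated library and its control were left out of an experiment, and all 34 passed this filter in both. Together they made up 0.930% of the summed FPKM in DRRi and 1.195% in GFPi, and 1.185% in pHAN_DRR1.2 and 1.358% in pHAN_GFP.

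**Figure D2:**
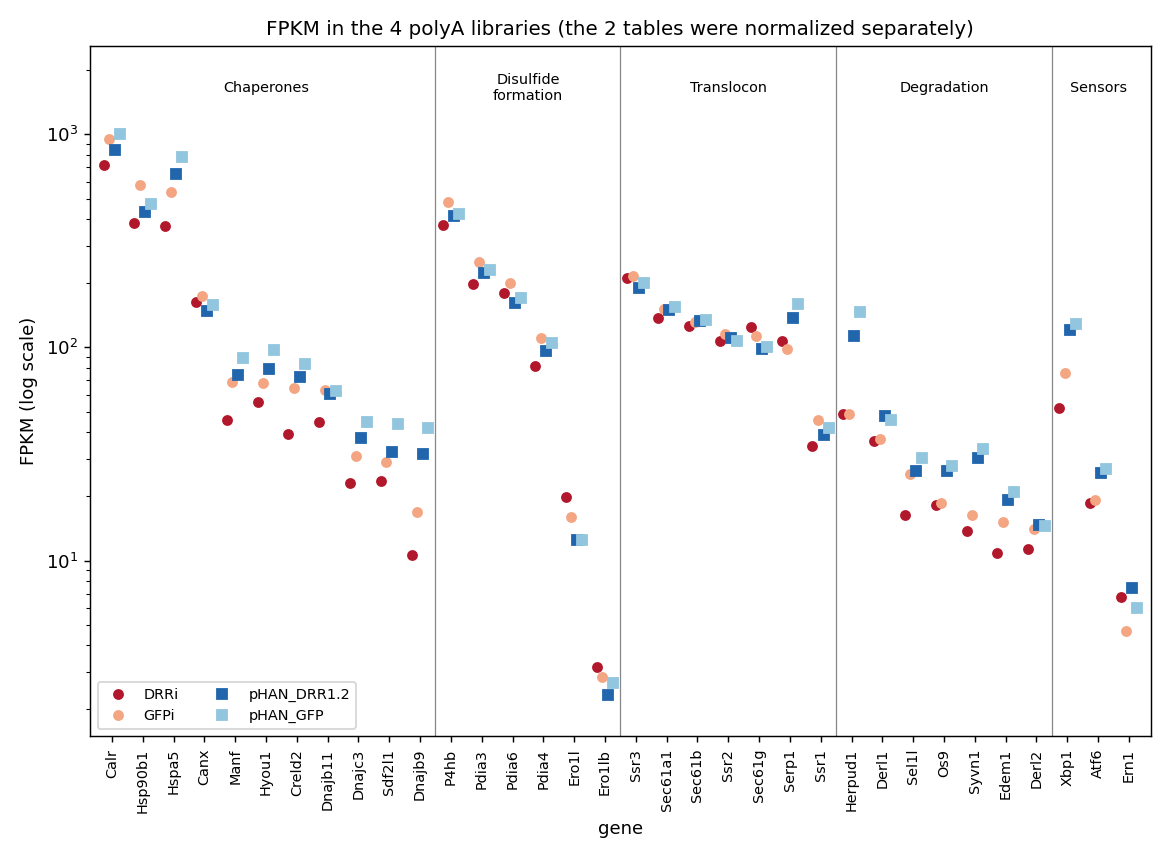
FPKM (log scale) of the 34 genes in the 4 polyA libraries, grouped by role and ordered within each role by GFPi, with 1 point per library. Chaperones span from 10.7 FPKM for Dnajb9 in DRRi to 1006 for Calr in pHAN_GFP, and in all 11 the DRRi point lies below the GFPi point and the pHAN_DRR1.2 point below the pHAN_GFP point.

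The first comparison asked how these genes stood after interference with the DRR RNA. In DRRi all 11 chaperones were lower than in GFPi, while the translocon genes were nearly level with it. Changes are log2 of DRRi over GFPi after adding 1 to each FPKM. At 1.5-fold on that scale 3 of the 34 genes were lower, Creld2, Dnajb9 and Sel1l, and 0 were higher, against 3.5% of the 10577 genes measured that were lower and 4.66% that were higher. Any value below 0 was seen for 28 of 34 genes, against 46.5% of all genes and 51.8% of the 1445 abundant genes that averaged at least 50 FPKM. Above 0 were 6 genes, against 53.5% of all genes. The median change was -0.29, beside 0.02 over all genes. In bulk RNA, fewer cells of a type and less RNA per cell cannot be told apart.

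Among the chaperones the median change was -0.48, and their summed FPKM was 1883 in DRRi against 2578 in GFPi, a ratio of 0.731. Creld2, a stress-induced disulfide isomerase and chaperone (chromosome 15, 88650075 to 88657111, mm9), had 39.2 FPKM in DRRi and 64.7 in GFPi, a change of -0.71 that was the lowest of the 34. Its rank among all changes was 229 from the lowest of 10577. Dnajb9, a co-chaperone of BiP that restrains IRE1 (chromosome 12, 45306883 to 45311055), had 10.7 FPKM in DRRi and 16.8 in GFPi (-0.61). The 5th percentile of all genes was -0.51, and Creld2, Dnajb9, Sel1l, Manf, Hsp90b1, Xbp1 and Hspa5 lay below it.

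Manf, a secreted factor kept in the reticulum by BiP, lay just short of 1.5-fold, with 45.7 FPKM in DRRi and 69.0 in GFPi (-0.58). Hsp90b1, the chaperone GRP94, was next, with 386 FPKM in DRRi and 576 in GFPi (-0.58). Hspa5, which encodes BiP, the main Hsp70 of the reticulum, had 372 FPKM in DRRi and 538 in GFPi. In rank of abundance over all genes, Hspa5 stood at place 149 in DRRi and 97 in GFPi, and Calr at place 78 in DRRi and 43 in GFPi. Dnajb11 and Dnajc3, co-chaperones of BiP, were at -0.48 and -0.41, and Calr at -0.40. Hyou1, a large Hsp70-like exchange factor, was at -0.30 and Sdf2l1, a partner of Dnajb11, at -0.28. Canx, the membrane-bound lectin chaperone calnexin, lay closest to its control, with 164 FPKM in DRRi and 175 in GFPi (-0.09), and its test is marked as failed in the authors' deposited table.

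The genes of disulfide formation divided between the isomerases and the oxidases that recharge them. The 4 isomerases were lower in DRRi, with P4hb, the classical protein disulfide isomerase, at 377 FPKM in DRRi and 482 in GFPi (-0.35). Pdia4 was at -0.42, Pdia3 at -0.35 and Pdia6 at -0.16. Both oxidases were above 0, Ero1l with 19.9 FPKM in DRRi and 16.0 in GFPi (0.30) and Ero1lb with 3.16 FPKM in DRRi and 2.85 in GFPi (0.11). The group's median was -0.26, and none of its 6 genes passed 1.5-fold.

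The translocon group had a median of -0.05 and a summed FPKM of 851 in DRRi against 870 in GFPi. Its most abundant gene was Ssr3, a subunit of the translocon-associated protein complex, with 212 FPKM in DRRi and 215 in GFPi (-0.03). Ssr1, another subunit of that complex, was the exception at 34.5 FPKM in DRRi and 45.8 in GFPi (-0.40). The channel subunits were at -0.13 for Sec61a1, -0.05 for Sec61b and 0.14 for Sec61g. Serp1, which stabilizes membrane proteins at the channel, was at 0.13 and Ssr2 at -0.10. None of the 7 genes passed 1.5-fold.

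In the degradation group 6 of 7 genes were below 0, with a median of -0.23. Sel1l, the adaptor of the ubiquitin ligase that clears misfolded chains (chromosome 12, 93044482 to 93087597), had 16.4 FPKM in DRRi and 25.5 in GFPi (-0.60). Its place past 1.5-fold rested on a minor coding sequence listed at 0.000354 FPKM in DRRi and 0.760 in GFPi, and its major coding sequence taken by itself was at -0.56. Syvn1, the ligase itself, was at -0.23, and Edem1, which recognizes trimmed glycans, at -0.45. Derl2 was at -0.29, while its paralogue Derl1 and the lectin gene Os9 were at -0.04 and -0.03. Herpud1, a stress-induced scaffold of the ligase and the most abundant of the group, had 48.6 FPKM in DRRi and 48.5 in GFPi (0.005).

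The 3 sensor genes had values on either side of 0. Xbp1, which encodes the transcription factor made by IRE1 splicing, had 52.0 FPKM in DRRi and 76.1 in GFPi (-0.54). Its spliced and unspliced forms were not separated in these values. Atf6 was at 18.6 FPKM in DRRi and 19.2 in GFPi (-0.04). Ern1, which encodes IRE1 itself, was the highest of the 34 genes, with 6.71 FPKM in DRRi and 4.66 in GFPi (0.45).

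The deposited tests compared 1 library with 1 and are quoted as their authors gave them. By the authors' deposited table, a total of 3 of the 34 genes had a p-value under 0.05 and were lower in DRRi, against 3.67% of all genes, and 0 were higher, against 4.16%. These were Creld2 (p = 0.0164), Manf (p = 0.0370) and Sel1l (p = 0.0412) in the authors' deposited table. With the q-value, which adjusts for all tests, 0 of 34 were under 0.05 in the authors' deposited table, against 0.577% of genes lower and 0.643% higher. The smallest q-value of the 34 in the authors' deposited table was 0.400, for Creld2.

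**Figure D3:**
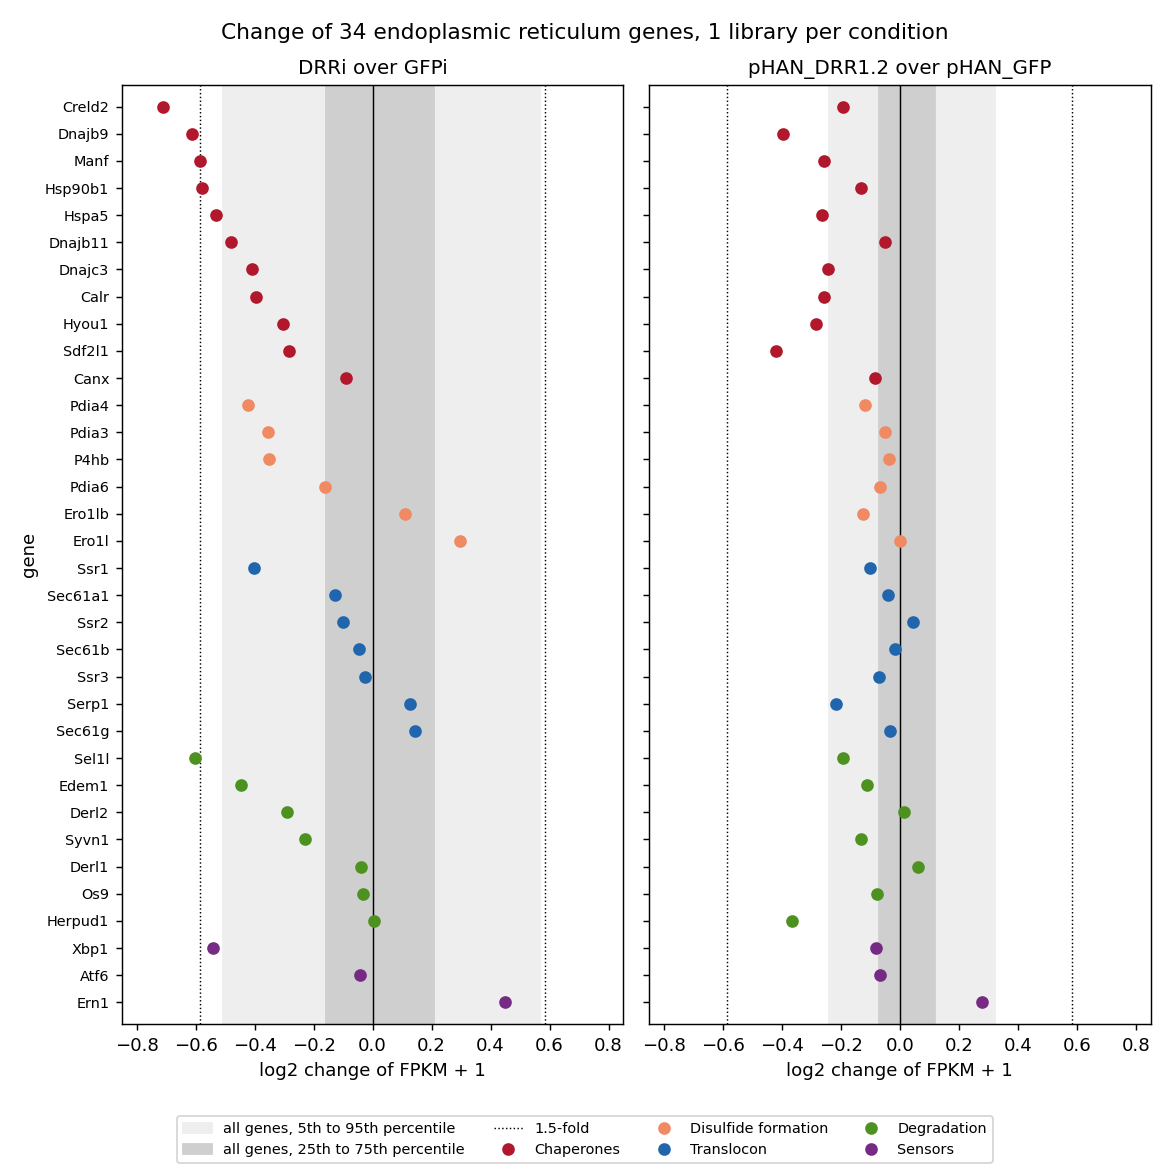
Log2 change of FPKM + 1 for each of the 34 genes, coloured by role, in DRRi over GFPi (left) and pHAN_DRR1.2 over pHAN_GFP (right). Grey bands hold the central 50% (dark) and 90% (light) of all genes, dotted lines mark 1.5-fold, and each panel compares 1 library with 1. All 11 chaperones lie left of 0 in both panels, and Ern1 lies right of 0 in both.

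The second comparison turned to cells with added DRR RNA. All 11 chaperones were lower in pHAN_DRR1.2 than in pHAN_GFP, none of them by 1.5-fold. At 1.5-fold 0 of the 34 genes were lower and 0 higher, against 0.654% and 1.38% of the 10699 genes measured. Values below 0 were seen for 29 of 34 genes, against 44.4% of all genes and 40.8% of the 1403 genes that averaged at least 50 FPKM. Above 0 were 5 genes, against 55.6% of all genes. The median change was -0.09, beside 0.02 over all genes.

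The chaperone median was -0.26, and their summed FPKM was 2462 in pHAN_DRR1.2 against 2881 in pHAN_GFP, a ratio of 0.854. Sdf2l1 was the lowest of the 34 genes, with 32.4 FPKM in pHAN_DRR1.2 and 43.7 in pHAN_GFP (-0.42). Dnajb9 had 31.6 FPKM in pHAN_DRR1.2 and 41.9 in pHAN_GFP (-0.40), and Hyou1 was at -0.28. The abundant chaperone Hspa5 had 651 FPKM in pHAN_DRR1.2 and 782 in pHAN_GFP (-0.26), and Calr was also at -0.26. Creld2, the lowest gene in the knockdown, had 73.0 FPKM in pHAN_DRR1.2 and 83.5 in pHAN_GFP (-0.19). The 5th percentile of all genes was -0.24 here, and Sdf2l1, Dnajb9, Herpud1, Hyou1, Hspa5, Calr, Manf and Dnajc3 lay below it.

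Outside the chaperones, the role medians lay between -0.11 and -0.04. The lowest single gene was Herpud1, with 114 FPKM in pHAN_DRR1.2 and 147 in pHAN_GFP (-0.37). P4hb had 412 FPKM in pHAN_DRR1.2 and 422 in pHAN_GFP (-0.04), and the disulfide group's median was -0.06. Ssr3 had 191 FPKM in pHAN_DRR1.2 and 200 in pHAN_GFP (-0.07), and the translocon median was -0.04, with Serp1 lowest at -0.22. Degradation genes had a median of -0.11, with Sel1l at 26.4 FPKM in pHAN_DRR1.2 and 30.4 in pHAN_GFP (-0.19). Xbp1 had 121 FPKM in pHAN_DRR1.2 and 128 in pHAN_GFP (-0.08), and Ern1 was again the highest of the 34, with 7.46 FPKM in pHAN_DRR1.2 and 5.96 in pHAN_GFP (0.28). By the authors' deposited table, Dnajb9 (p = 0.0292), Herpud1 (p = 0.0351) and Sdf2l1 (p = 0.0376) were lower with a p-value under 0.05, which makes 3 of 34 against 2.29% of all genes, and 0 were higher, against 3.88%. No q-value of the 34 genes in the authors' deposited table was under 0.05, against 0.589% of genes lower and 1.03% higher.

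The 2 experiments share no library. Of the 34 genes, 25 were lower in both DRRi and pHAN_DRR1.2 than in their controls, a pattern that 22.8% of the 10398 genes measured in both showed. Herpud1, Serp1, Sec61g and Ero1lb were above 0 in DRRi and below 0 in pHAN_DRR1.2 (21.5% of genes), and Ssr2, Derl1 and Derl2 the reverse (23.9%). Ern1 and Ero1l were above 0 in both (31.8%). Several of these values are very small, and the difference between the 2 experiments was not tested.

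**Figure D4:**
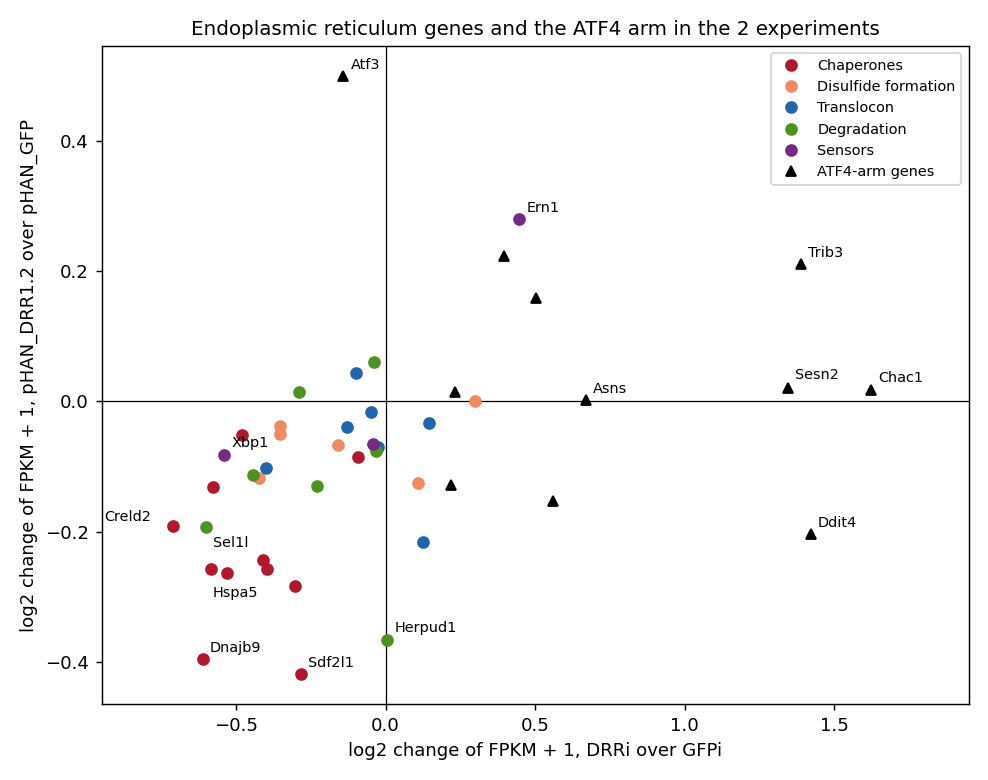
Log2 change in DRRi over GFPi (x axis) against that in pHAN_DRR1.2 over pHAN_GFP (y axis) for the 34 genes (circles, coloured by role) and the 11 genes of the ATF4 arm (triangles). The 25 circles in the lower left quadrant include all 11 chaperones, while 10 of the 11 triangles lie right of 0 and none passes 1.5-fold on the y axis.

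Read beside the promoters, the 11 genes with an ERSE or ERSE-II had a median change of -0.40 in DRRi, with 9 below 0, and the 17 matched genes with neither had -0.29, with 13 below 0. In pHAN_DRR1.2 the 11 genes had a median of -0.13 with 11 below 0, and the 17 had -0.08 with 14 below 0. The 6 genes not matched had a median of -0.11 in DRRi, with 6 below 0, and -0.05 in pHAN_DRR1.2, with 4 below 0. Of all genes, 46.5% were below 0 in DRRi and 44.4% in pHAN_DRR1.2. The ranges of the 11 and the 17 overlapped widely in both experiments. Most of the 11 are chaperones (Hspa5, Hsp90b1, Dnajb11, Dnajc3, Creld2, Calr and Canx), while of the 17 only Dnajb9 and Sdf2l1 are. A difference by element therefore cannot be told apart from a difference by role. Ero1lb, whose element is printed above, was at 0.11 in DRRi, and Dnajb9, which has neither element, at -0.61. The 7 expressed genes outside the 34 with an ERSE had medians of -0.17 in DRRi and -0.12 in pHAN_DRR1.2. One of them is Alg12, the neighbour of Creld2.

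Another arm of the response had a positive median in the knockdown. Of 11 genes of the PERK and ATF4 arm, 10 were above 0 in DRRi, against 53.5% of all genes. At 1.5-fold or more 5 were higher, against 4.66%, and the median of the 11 was 0.56. Atf3 was at -0.14. Chac1, which degrades glutathione, had 10.5 FPKM in DRRi and 2.74 in GFPi (1.62), and Ddit4, an inhibitor of mTORC1, had 45.3 FPKM in DRRi and 16.3 in GFPi (1.42). Eif2ak3, which encodes PERK itself, had 6.81 FPKM in DRRi and 5.72 in GFPi (0.22). In pHAN_DRR1.2 the median of the arm was 0.02, and Ddit3 (0.22) and Trib3 (0.21) had the largest changes among the genes of the arm that averaged at least 5 FPKM. Atf3, a scarcer gene, had the largest change of all 11, with 3.33 FPKM in pHAN_DRR1.2 and 2.06 in pHAN_GFP (0.50).

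Lists for neighbouring steps of the secretory route had medians between -0.14 and -0.07 in DRRi, beside -0.48 for the chaperones. Their counts below 0 stand against 46.5% of all genes in DRRi and 44.4% in pHAN_DRR1.2. Of 17 genes of targeting and signal peptide cleavage, 13 were below 0 in DRRi (median -0.14) and 16 in pHAN_DRR1.2 (median -0.10), with 0 past 1.5-fold in either. Tram1, which helps chains into the channel, had 48.4 FPKM in DRRi and 66.8 in GFPi (-0.46), and Sec62 was at -0.46. In pHAN_DRR1.2, Spcs3, a subunit of the signal peptidase, was at -0.20 and Srp19 at -0.18. Of 10 oligosaccharyltransferase genes, 8 were below 0 in DRRi (median -0.14) and 2 were 1.5-fold or more higher. Magt1 had 33.9 FPKM in DRRi and 15.8 in GFPi (1.05), with a q-value of 0.0342 in the authors' deposited table, and Ost4 was at 0.72. Their median in pHAN_DRR1.2 was -0.03, with Stt3a and Stt3b, the catalytic subunits, at -0.17 and -0.18.

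Of 24 vesicle transport genes, 15 were below 0 in DRRi (median -0.10, 46.5% of all genes below 0) and 17 in pHAN_DRR1.2 (median -0.06, 44.4% of all genes). Sec23a, a coat protein of vesicles that leave the reticulum, had 19.8 FPKM in DRRi and 32.8 in GFPi (-0.70), the one gene of this list past 1.5-fold. Tmed10 was at -0.49 in DRRi, and Lman1 was at -0.24 and Sec23a at -0.22 in pHAN_DRR1.2. Of 12 further genes of degradation and nucleotide exchange, 7 were below 0 in DRRi (median -0.07) and 10 in pHAN_DRR1.2 (median -0.07). Ubxn4, a membrane anchor of the p97 ATPase, had 16.7 FPKM in DRRi and 34.1 in GFPi (-0.99), with a q-value of 0.0375 in the authors' deposited table. Rnf5, a ubiquitin ligase, was at -0.54 in DRRi and 0.19 in pHAN_DRR1.2.

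The next 3 lists are again read against 46.5% of all genes below 0 in DRRi and 44.4% in pHAN_DRR1.2. Genes of collagen folding had 7 of 12 below 0 in DRRi (median -0.12) and 9 of 12 in pHAN_DRR1.2 (median -0.07). P4ha1, a prolyl hydroxylase subunit that works with P4hb, was at -0.37 in DRRi and Lepre1 at -0.30, while Plod2 was at -0.22 and Crtap at -0.14 in pHAN_DRR1.2. The 1 gene of that list past 1.5-fold, Leprel1, was higher in DRRi, with 2.20 FPKM against 0.936 in GFPi (0.73). Glycan trimming genes had 4 of 6 below 0 in DRRi (median -0.10), with Ganab at -0.31 and Man1b1 at -0.26, and 2 of 6 in pHAN_DRR1.2 (median 0.04), with Prkcsh at 0.13 and Uggt1 at -0.10. Chaperones of the cytosol and mitochondria had 6 of 16 below 0 in DRRi, with a median of 0.04 beside -0.48 for those of the reticulum. Hsp90ab1, a cytosolic paralogue of Hsp90b1, had 1880 FPKM in DRRi and 1510 in GFPi (0.32), and Hspa1b, a cytosolic Hsp70 gene that shares much of its sequence with Hspa1a, was at 0.47. In pHAN_DRR1.2 their median was -0.03, Hspa1b was at 0.16 and Hspb1, a small heat shock protein gene, had 307 FPKM against 198 in pHAN_GFP (0.63).

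Muscle markers also differed between the libraries, some of them little and not all in 1 direction. In DRRi, Myf5 was at 0.27 and Cdh15 at -0.03. Myod1 had 33.1 FPKM in DRRi and 37.7 in GFPi, and 65.6 in pHAN_DRR1.2 and 68.9 in pHAN_GFP. Myog, which marks the start of terminal differentiation, had 2.61 FPKM in DRRi and 10.2 in GFPi, but 65.8 in pHAN_DRR1.2 and 26.3 in pHAN_GFP. Des, the muscle intermediate filament gene, had 231 FPKM in DRRi and 267 in GFPi, and 577 in pHAN_DRR1.2 and 460 in pHAN_GFP, so each library held muscle RNA. Myog was lower than its control in DRRi and higher in pHAN_DRR1.2, and the chaperones were lower in both. Whether the chaperone values are linked to Myog was not tested. Of 6 fibroblast and matrix genes, 4 passed the filter in DRRi, with 3 above 0 and a median of 0.76. Col1a1 had 14.2 FPKM in DRRi and 4.32 in GFPi (1.51), and Postn had 5.33 FPKM in DRRi and 1.43 in GFPi (1.38). The more abundant Col3a1 went the other way, with 160 FPKM in DRRi and 235 in GFPi (-0.56), and Col1a2 was at 0.14. In pHAN_DRR1.2 5 passed with 4 below 0, and Postn had 13.8 FPKM in pHAN_DRR1.2 and 22.6 in pHAN_GFP (-0.67). Col1a1 was the 1 gene above 0 there, at 0.35. The summed FPKM of the list, most of it Col1a2 and Col3a1, was 420 in DRRi against 459 in GFPi, and 702 in pHAN_DRR1.2 against 792 in pHAN_GFP. Endothelial and blood markers summed to 1.72 FPKM in DRRi and 2.55 in GFPi, and to 2.22 in pHAN_DRR1.2 and 1.69 in pHAN_GFP, nearly all of it Cd68, and the neuronal marker Rbfox3 was listed at 0 in all 4. Their part in the results was not tested. The DRR RNA is not among the coding sequences of the tables, and its own level was not analysed here.

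The third comparison asked which of these genes lie near sites of the muscle factors. A peak was counted for a gene when it lay at 10 kb or less from the locus of the gene in the expression tables (mm9). Of the 34 genes, 25 had a MyoD peak in myotubes (73.5%, 95% Clopper-Pearson interval 55.6 to 87.1), against 56% of all 20368 loci and 73.9% of the 10878 loci expressed at 1 FPKM or more. In myoblasts 16 had a MyoD peak (47.1%, 29.8 to 64.9), against 34.3% of loci and 45.3% of expressed ones. MyoG peaks in myotubes lay near 20 genes (58.8%, 40.7 to 75.4), against 52.9% of loci and 69.9% of expressed ones. Each interval held the share of all loci as well as that of expressed ones, so the intervals cannot tell these shares apart. The intervals cover counting error only and treat genes chosen by name as independent draws, so they are no test of a difference.

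Of the genes without any factor peak 5 were chaperones. In none of the 3 lists was there a peak near Hspa5, Hsp90b1, Dnajb9, Dnajc3, Sdf2l1, Ero1lb, Sec61g or Derl2, which makes 8 of 34 genes against 37.5% of all loci and 19.1% of expressed ones. Without a MyoD peak at either stage were the same 8, against 41.6% of all loci and 24.1% of expressed ones. Chaperones thus had a MyoD peak in myotubes near 6 of 11, against 6 of 7 in degradation and 3 of 3 among the sensors, with wide intervals (23.4 to 83.3, 42.1 to 99.6 and 29.2 to 100 percent). The loci ran from 2246 bp for Sdf2l1 to 163315 bp for Atf6. The stretch searched grew with that length, which was not adjusted for. MyoD was near 15 genes at both stages, against 43.4% of expressed loci. It was near 10 genes in myotubes and not in myoblasts, among them Creld2, Hyou1, Pdia4, Herpud1 and Syvn1, against 30.5%. Ssr3 alone had a peak in myoblasts and not in myotubes, against 2.32% of all loci and 1.93% of expressed ones. Both MyoD and MyoG peaks in myotubes lay near 20 genes, against 48.1% of all loci and 64.1% of expressed ones. All 20 genes with a MyoG peak thus had a MyoD peak too, as did 9787 of the 10778 loci with a MyoG peak in all and 6972 of the 7602 expressed ones, so a MyoD peak beside MyoG was the common case everywhere. MyoD without MyoG was seen near 5 genes, Pdia6, Sec61a1, Sec61b, Serp1 and Edem1, against 8% and 9.84%. MyoG without MyoD was seen near 0 of 34 genes, against 4.87% and 5.79%.

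**Figure D5:**
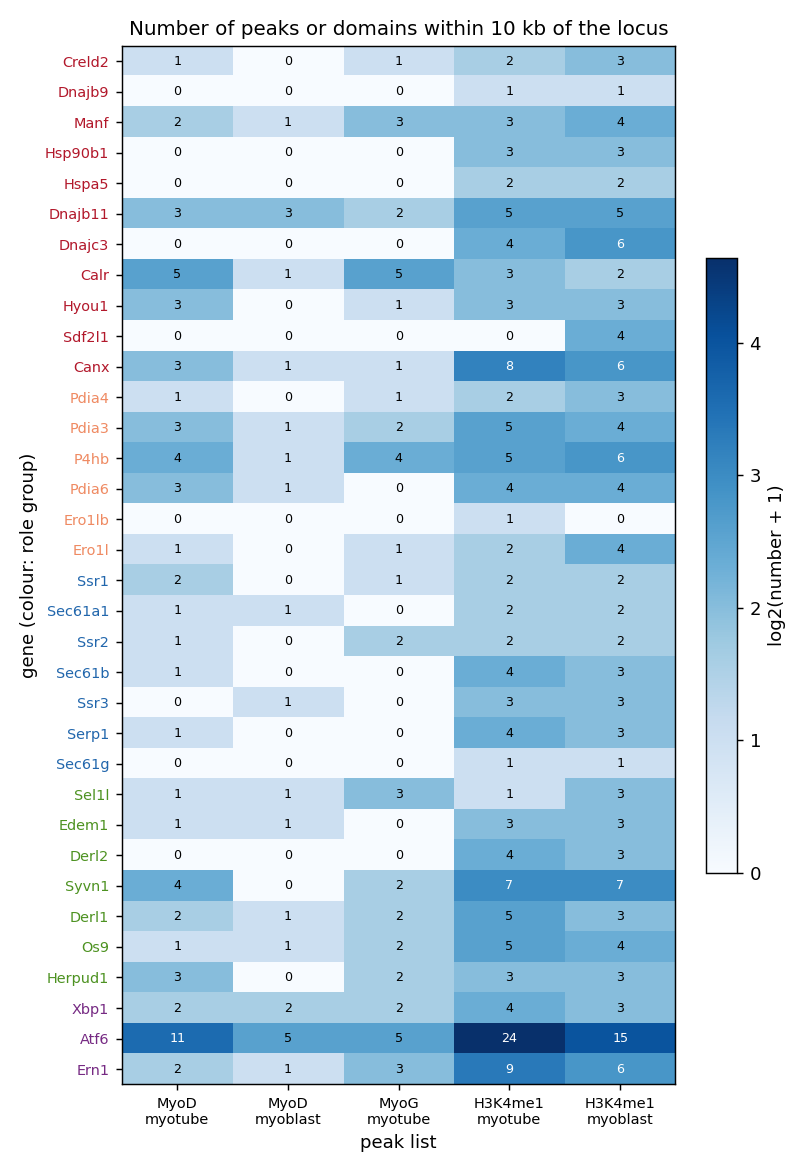
Number of MyoD and MyoG peaks and of H3K4me1 domains at 10 kb or less from each of the 34 loci (rows, coloured by role) in the 5 peak lists (columns), printed in each cell and shaded by log2 of the number plus 1. Rows with 0 in the first 3 columns are Dnajb9, Hsp90b1, Hspa5, Dnajc3, Sdf2l1, Ero1lb, Sec61g and Derl2. Atf6, the longest locus at 163315 bp, has the highest number in every column but that of MyoG, where it has 5 as Calr does.

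Near the 34 loci lay 62 of the 39700 MyoD peaks of myotubes, 23 of the 18141 of myoblasts and 45 of the 35380 MyoG peaks. The lists thus differ in size, and of these nearby peaks 30, 12 and 17 overlapped a locus of the 34. No other gene lay nearer for 46, 17 and 29 of them. Their scores, given by the authors' peak caller and used only within a list, had medians of 137, 114 and 119, against 175, 162 and 136 over the whole lists. Of the 62 MyoD peaks of myotubes, 18 overlapped a MyoD peak of myoblasts by 1 bp or more (29.0%, against 34.1% of all such peaks), and these were 18 of the 23 myoblast peaks (78.3%, against 73.9%). Of the 45 MyoG peaks, 37 overlapped a MyoD peak of myotubes (82.2%, against 77.6%). H3K4me1 domains of myotubes covered 50 of the 62 MyoD peaks at least in part (80.6%, against 85%), and 43 of them when at least 0.5 of the shorter one had to overlap (69.4%, against 82.0%).

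The highest MyoD score near these genes in myotubes, 1746.36, belonged to a peak beside Herpud1 (chromosome 8, 96901398 to 96904187), 6212 bp from the locus with no gene nearer. MyoG had a peak at the same place (719.08), and MyoD had none there in myoblasts. Atf6 followed with a MyoD peak 1544 bp from its locus (chromosome 1, 172632289 to 172633043, 1215.71), which was also a MyoG peak (1034.66) and a MyoD peak in myoblasts (564.79). A peak beside P4hb (chromosome 11, 120415645 to 120417394) scored 1013.78 for MyoD in myotubes, 1027.22 in myoblasts and 1070.5 for MyoG, but Dysfip1 lies nearer to it. Likewise the MyoD peaks beside Calr (755.14) and Ero1l (723.26) in myotubes lay nearer to other genes.

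Xbp1 had factor peaks that overlapped its locus (chromosome 11, 5420969 to 5425875). The peak at its lower end scored 654.1 for MyoD in myotubes, 359.27 for MyoD in myoblasts and 380.03 for MyoG. There the myoblast MyoD peak (5420429 to 5421167) and the MyoG peak (5420595 to 5421137) began before the locus and reached into it. Os9 had a myoblast peak of 364.05 that lay nearer to Agap2. At Creld2, the MyoD peak of myotubes overlapped the locus (chromosome 15, 88649503 to 88650872) with a score of 113.79. Sel1l held a MyoD peak inside the gene at both stages (257.07 in myotubes and 166.87 in myoblasts), which overlapped a MyoG peak of 268.69.

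Expression changes were read beside these peaks as medians. In DRRi, the 25 genes with a MyoD peak in myotubes had a median change of -0.23, and the 9 without had -0.29, while all genes with and without such a peak had 0.03 and 0.01. In pHAN_DRR1.2 the 25 had -0.08 and the 9 had -0.13, beside 0.03 and 0.001 for all genes. The 20 genes with a MyoG peak had -0.33 in DRRi and the 14 without had -0.22, but in pHAN_DRR1.2 the order was the other way, with -0.08 for the 20 and -0.12 for the 14. For all genes with and without a MyoG peak the medians were 0.03 and -0.0003 in both experiments. For MyoD in myoblasts, the 16 genes with a peak had -0.26 in DRRi and the 18 without had -0.29. In pHAN_DRR1.2 these were -0.07 and -0.13. All genes with and without a myoblast peak had 0.04 and 0.01 in DRRi, and 0.03 and 0.01 in pHAN_DRR1.2. Myotube peaks were taken at 48 h of differentiation, myoblast peaks in proliferating cells and RNA at 4 h, so the readouts are from different stages.

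H3K4me1 marked nearly every one of the loci at both stages. In myotubes 33 of 34 had a domain within 10 kb, against 72% of loci and 94.5% of expressed ones, and in myoblasts 33 of 34, against 73.6% and 95.7%. Sdf2l1 was the exception in myotubes and Ero1lb in myoblasts. Sdf2l1 had 0 domains in myotubes but 4 in myoblasts, with 227 ChIP reads over 6400 bp, and Ero1lb had 1 domain in myotubes, with 32 ChIP and 3 control reads, and 0 in myoblasts. Each domain that came within 10 kb of a locus was counted at its full length, also where it ran beyond that distance. The summed length per locus had a median of 9900 bp in myotubes and 9500 bp in myoblasts. It was larger in myotubes for 18 genes, against 53.9% of expressed loci, and in myoblasts for 16. The authors' folds of ChIP over control, summed over the domains of a gene, were larger in myotubes for 23 of 34 genes, against 68.3% of expressed loci.

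By that summed fold, Atf6 differed most between stages, with 73.8 in myotubes over 65200 bp in 24 domains, and 40.8 in myoblasts over 57600 bp in 15 domains. Its length-weighted fold was 3.16 in myotubes and 3.03 in myoblasts, so the sums differed more than the folds did. Pdia3 had 19.0 in myotubes and 7.65 in myoblasts, with a length-weighted fold of 3.59 in myotubes and 1.91 in myoblasts. On the other side were Sdf2l1, then Manf with 8.03 in myotubes and 13.3 in myoblasts, and Sel1l with 1.71 in 1 domain of myotubes and 6.49 in 3 domains of myoblasts.

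By length, a measure chosen after its values were seen, Herpud1 and Derl1 stood out. The domains that came within 10 kb of Herpud1 had a full length of 54400 bp in myotubes and 13000 bp in myoblasts. In myotubes part of that length lay farther than 10 kb from the locus, and the same holds for Derl1. The largest of them in myotubes (chromosome 8, 96872201 to 96907000) held 2492 ChIP and 1038 control reads and overlapped the high-scoring MyoD peak described above, but Slc12a3 lies nearer to it. For Derl1 the full length of such domains was 53400 bp in myotubes and 11800 bp in myoblasts, and the largest one lay nearer to Zhx2. Creld2 was the other way round, with 4400 bp in myotubes and 14800 bp in myoblasts. Over all domains the myotube list held 37.5 ChIP reads per kb and the myoblast list 45.8, and the part of this in the differences was not tested.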

How the data were processed

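PolyA RNA-seq of 4 C2C12 libraries and 5 ChIP-seq peak lists were used, and the other 2 of the 11 samples were not analysed here. The deposited FPKM values, scaled by the authors, come in 2 tables of coding sequences, 1 per experiment, per the file headers. The submitters' processing notes list TopHat and SICER with no version, and mm9 as the build, and the quantifier is not given in the sources used here. The condition names in the tables differ from the labels for DRRi and pHAN_DRR1.2 and were taken as those libraries because the other condition of each table is the GFP control. The p-values and q-values are the authors' own. Per the file headers, MACS made the MyoD and MyoG lists, in which each peak has the authors' score. The deposited H3K4me1 domains carry counts of ChIP and control reads and a fold scaled by the authors, in the SICER column layout. The labels name 2 runs for each factor sample, and whether they were pooled is not given in the sources used here. Depths of the RNA libraries are unknown.

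FPKM was summed per symbol, genes averaging at least 1 FPKM in an experiment were kept, and changes are log2 ratios of FPKM plus a pseudocount of 1, so those of low genes come out too small. The threshold was 1.5-fold. With 1 library per group no p-value was computed. Reads that Pdia6 may share with Atp6v1c2, Serp1 with Eif2a and Syvn1 with Mrpl49, whose loci are written alike in the tables, are not told apart here. Peaks were assigned at 10 kb or less, so 1 peak can count for several genes. Promoters were scanned in the RefSeq table. Python 3.11.15, pandas 2.3.3, numpy 2.4.6 and scipy 1.17.1 were used, and the computation was tested on simulated data. The members and gene lists were chosen with earlier results of these data known. Values were given for members past 1.5-fold, the most abundant member of each role, up to 2 genes of each further list by size of change averaging at least 5 FPKM, the 5 highest-scoring factor peaks per list, and the H3K4me1 loci with the largest difference in summed fold. A gene of a further list that this rule names is not reported here. Other members named with values were named after those were seen. Alternatives tried were another pseudocount, filter, coding sequence, centring, fold, distance, peak threshold and overlap. The shares over genes of 50 FPKM or more and over expressed loci were added after the data were seen.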

Additional observations from a re-analysis of the deposited data

How the results depend on the processing

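Of the 34 genes, 3 were 1.5-fold or more lower in DRRi, against 3.5% of all genes. Centred on the median of all genes, 5 were lower, with Hsp90b1 and Manf added, against 3.84% of all genes. At 2-fold 0 were lower, where 85 genes were lower and 95 higher in all. With a pseudocount of 0.1, 4 were lower, against 4.84% of all genes. When only the major coding sequence of each gene was used, 2 were lower, which leaves out Sel1l, against 4.06%. In pHAN_DRR1.2 0 passed under each alternative, against 0.0841% to 1.12% of all genes lower and 0.318% to 2.15% higher. Values below 0 were seen for 27 to 29 genes in DRRi, against 35.978% to 49.9953% of all genes over the settings. In pHAN_DRR1.2 they were seen for 28 to 31 genes, against 35.8847% to 49.9953%. The lowest of these shares came without the filter on low values and the highest with centring. Signs turned only for Os9 (coding sequence alone) and Herpud1 (centred) in DRRi, and for Ero1l and Derl2 (centred) in pHAN_DRR1.2. With peaks at or above the median score of their list, 14 genes had a MyoD peak in myotubes, 7 a MyoD peak in myoblasts and 13 a MyoG peak, against 38.7%, 20.7% and 35.0% of all loci. At 50 kb, 25 had a MyoD peak in myoblasts, against 57.9% of loci. The cause of these shifts was not tested beyond the construction of each setting. Overlaps covering at least 0.5 of the shorter peak gave 17 of 62 MyoD peaks of myotubes shared with myoblasts, and 37 of 45 MyoG peaks shared with MyoD. By that rule H3K4me1 domains of myotubes held 43 of 62 MyoD peaks (69.4%, interval 56.3 to 80.4, against 82.0% of all such peaks) and 30 of 45 MyoG peaks (66.7%, 51.0 to 80.0, against 82.4%). Those of myoblasts held 17 of 23 MyoD peaks (73.9%, 51.6 to 89.8, against 84.0%). The myotube intervals lay below the share of all peaks, and the myoblast interval held it. At 1 bp or more each share lay inside its interval (50 of 62, 34 of 45 and 20 of 23). Peaks of the same gene are not independent, with 11 of the 62 near Atf6, so these intervals are no test of a difference. No paired analysis was possible because each condition has 1 library. The absence of replicates and of read depths limits every value.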
